A study of Mus musculus with 8 samples.

Results

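The activator protein 1 (AP-1) family of transcription factors was described in invariant natural killer T (iNKT) cells of the skin and the spleen, through 10 genes chosen by name: Fos, Fosb, Fosl1, Fosl2, Jun, Junb, Jund, Atf3, Batf and Maff. All 10 were found among the 22549 genes of the deposited table. RNA had been sequenced from iNKT cells, T cells that recognise lipids presented by CD1d, in 4 skin libraries and 4 spleen libraries. All 8 came from mice of the genotype CCR10+/EGFP, which carry 1 EGFP allele at the locus of the chemokine receptor Ccr10, so both tissues share that allele and no group lacks it. The labels used here do not give age, sex, treatment, the sort, or how many animals or cells stand behind a library, and the p-values measure the spread between libraries, which may be technical.

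AP-1 factors bind DNA as dimers through a basic leucine zipper. Jun proteins pair with one another or with Fos, Atf, Batf or Maf partners, while Fos proteins need a Jun partner. Many of the genes are immediate early genes: they are nearly silent in resting lymphocytes and are transcribed within minutes when MAP kinase, calcium or stress signals reach the factors already bound at their promoters. In T cells AP-1 works with NFAT and, through Batf, with IRF4 at cytokine and effector genes.

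The stretches next to the start sites of 4 members are shown because their levels diverged within the family: Fos, Junb and Atf3 were high in every skin library, whereas Jun was at 0 in most. Each is the 120 bases before the gene start on the gene's own strand, 5′ to 3′, from RefSeq's GRCm38.p6, a newer build than the mm9 named for the counts. Capitals mark matches to any of the motifs searched.
Fos, plus strand, chr12:85473770-85473889: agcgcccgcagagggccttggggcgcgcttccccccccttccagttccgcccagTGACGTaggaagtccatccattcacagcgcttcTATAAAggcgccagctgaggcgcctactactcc
Junb, minus strand, chr8:84978749-84978868: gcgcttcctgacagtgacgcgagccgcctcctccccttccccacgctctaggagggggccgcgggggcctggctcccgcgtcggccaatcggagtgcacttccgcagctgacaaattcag
Atf3, minus strand, chr1:191183334-191183453: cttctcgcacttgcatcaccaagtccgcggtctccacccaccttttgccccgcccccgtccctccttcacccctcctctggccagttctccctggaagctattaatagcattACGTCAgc
Jun, minus strand, chr4:95052223-95052342: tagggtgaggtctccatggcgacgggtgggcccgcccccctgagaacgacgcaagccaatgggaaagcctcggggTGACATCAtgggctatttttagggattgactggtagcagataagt

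The motifs were searched on both strands in the 250 bases before each start: the AP-1 site TGACTCA, the cyclic AMP response element TGACGTCA, its core TGACGT (which every full element also holds), the AP-1-like site TGACATCA of the Jun promoter, the CArG box of serum response factor and TATAAA. They were chosen after the sequences had been seen. Fos held TGACGT from 66 bases before its start and TATAAA from 33 bases before it. Atf3 held the same core on the other strand, from 8 bases before its start, and Jun held TGACATCA from 45 bases before its start. The Junb window held none of the 6 motifs. Of the members not shown, Batf held TGACGT from 98 bases before its start. Maff held TGACGTCA from 29 bases before its start 2 and TGACATCA from 45 bases before its start 3. The windows of Fosb, Fosl2 and Jund held none. The motifs therefore did not sort the members by their levels. Of 32841 promoter windows of this length, 6.47% held TGACGT, 12.4% TATAAA, 2.93% TGACATCA, 4.46% TGACTCA, 1.55% TGACGTCA and 1.47% a CArG box. A match is a match of letters only, and these libraries hold no measure of binding.

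Levels are given in CPM, the counts of a gene relative to the TMM-scaled size of its library. The labelled cell type was checked against T cell genes: all 8 listed T cell markers found in the table had counts in both tissues, and their summed level was 3086 to 4068 CPM in skin and 4375 to 6290 CPM in spleen. Library totals ran from 7191131 to 9791973 expected counts. Skin libraries held 5302 to 6012 genes with a count and spleen replicates 1 to 3 held 6415 to 8690, while spleen replicate 4 held 10094. Summed keratinocyte markers stood at 273 to 1032 CPM in skin, with 8 of 12 above 0, and at 0 to 29.5 CPM in spleen, with 3 of 12 above 0. Dsp, Col17a1 and Krt6a were at 0 everywhere. Summed fibroblast markers reached 168 CPM in skin, with 3 of 8 above 0, and were at 0 in spleen. Dendritic and Langerhans cell markers summed to 228 to 451 CPM in skin and 21.6 to 429 CPM in spleen. Other sums were higher in spleen. Erythroid and platelet markers summed to 0 to 2.12 CPM in skin and 111 to 274 CPM in spleen. B cell markers summed to 0 to 76.1 CPM in skin and 48.8 to 235 CPM in spleen. The part of such cells in the differences between the tissues was not tested.

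Of the Fos genes, Fos itself was abundant in all skin libraries and in 1 spleen library. Fos stood at 809.5, 1078, 1974 and 1647 CPM in skin replicates 1 to 4. In spleen it stood at 0.0974, 0, 0 and 950 CPM in replicates 1 to 4. Spleen replicate 4 lay within the skin range, whereas the other 3 spleen libraries held 1 Fos count between them. A library averages over its cells, so a smaller share of expressing cells and less transcript per cell cannot be told apart. With all 8 libraries the fitted log2 fold change of skin over spleen came to 2.54 ± 2.40 (SE; edgeR adjusted p = 0.974, n = 4 each). Without spleen replicate 4, Fos was higher in skin (edgeR adjusted p = 0.000397). The ratio of the skin mean to the pooled level of spleen replicates 1 to 3 was 35904, with a 95% interval of 6444 to 1418125 from the exact Poisson error of that single count.

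**Figure D1:**
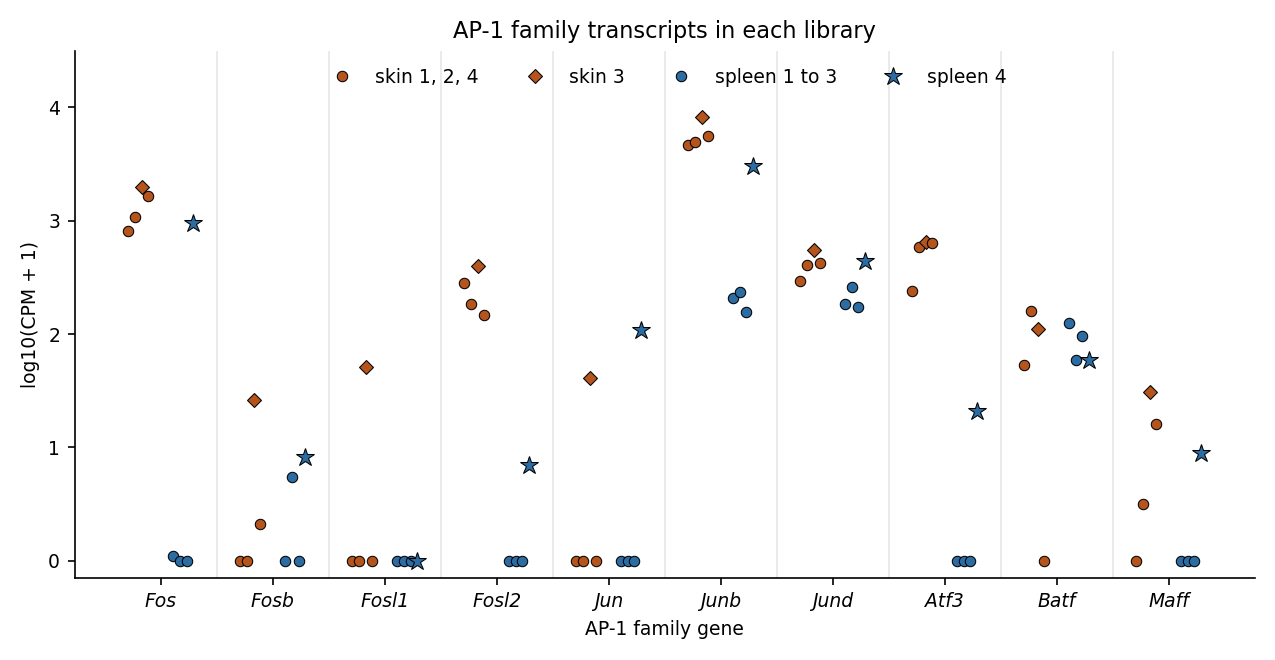
Level of each AP-1 gene in each library as log10(CPM + 1). Each point is 1 library, with skin in orange, spleen in blue, skin replicate 3 as a diamond and spleen replicate 4 as a star. Fos, Fosl2, Junb and Atf3 were high in all 4 skin libraries, and spleen replicate 4 stood above the other spleen libraries for 8 of the 10 genes.

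Fosl2, which encodes the Fos relative Fra-2, was well represented in skin and at or near 0 in spleen. It stood at 284, 185, 400.2 and 146 CPM in skin replicates 1 to 4. In spleen it had 40 counts in replicate 4, or 5.95 CPM, and none in the other 3. Every skin value lay above every spleen value. The fitted log2 fold change came to 7.41 ± 2.30 (SE; edgeR adjusted p = 0.128, n = 4 each). Without spleen replicate 4 the skin mean was at least 718-fold higher than the floor of 3 counts per library in the remaining spleen libraries, and Fosl2 was called (edgeR adjusted p = 0.0109). Such a bound accounts for the error of counting and for no loss of transcripts before the reads were made.

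The remaining Fos genes were rare. Fosl1, which encodes Fra-1, had 443 counts in skin replicate 3, or 50.3 CPM, and no count in any other library. Fosb stood at 25.2 CPM in skin replicate 3 and at 1.13 CPM in skin replicate 4, with none in the other skin libraries. In spleen Fosb stood at 4.44 CPM in replicate 2 and 7.28 CPM in replicate 4 and at 0 in the others. Neither gene passed the filter on low counts, so neither was tested. Both were highest in skin replicate 3. Summed keratinocyte markers stood at 1032 CPM in that library and at 892 CPM in skin replicate 1, which held no count of either gene. A link between those markers and these genes was not tested.

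Junb, a Jun protein abundant in effector T cells, was high in all skin libraries. It stood at 4689, 4977, 8269 and 5604 CPM in skin replicates 1 to 4. In spleen it stood at 207, 236, 156 and 3048 CPM. All skin values lay above all spleen values, and spleen replicate 4 was 12.9 times the next spleen library. The fitted log2 fold change came to 2.69 ± 0.97 (SE; edgeR adjusted p = 0.223, n = 4 each). Without spleen replicate 4 it was 4.88 ± 0.29 (SE; edgeR adjusted p = 0.000308, n = 4 and 3), a fold of 29.5.

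Jund, the Jun protein that resting cells express, differed less between the tissues than Junb, the only other member detected in all 8 libraries. It stood at 292, 408, 546 and 423 CPM in skin and at 182, 259, 174 and 444 CPM in spleen, each in the order of the replicates. The tissues overlapped through spleen replicate 4 alone. The fitted log2 fold change came to 0.66 ± 0.38 (SE; edgeR adjusted p = 0.671, n = 4 each) and 1.03 ± 0.38 without that library (SE; edgeR adjusted p = 0.256).

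Jun itself, the founding member of the family, had no count in most libraries. It had 349 counts in skin replicate 3, or 39.6 CPM, and 728 counts in spleen replicate 4, or 108 CPM, and no count in the other 6. The floor of 3 counts corresponded to 0.454, 0.330 and 0.424 CPM in skin replicates 1, 2 and 4, so Jun was below these levels in libraries that held 809.5 to 1647 CPM of Fos. Of 613 other genes whose level in skin replicate 3 was within 25% of that of Jun, 17.0% were at 0 in all 3 other skin libraries. In spleen replicate 4, 0.402% of 1244 genes at a like level were at 0 in all 3 other spleen libraries (5 genes). Jun did not pass the filter and was not tested.

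Because longer transcripts give more reads, the make-up of each family was worked out as CPM per kilobase. The length was that of the longest coding transcript in GENCODE M21 (1809 bases for Junb, 1668 for Jund, 3189 for Jun). On that scale Junb made up 91.8% to 93.7% of the summed Jun, Junb and Jund level in the skin libraries. In spleen replicates 1 to 3 it made up 45.4% to 51.1%, beside 48.9% to 54.6% for Jund, so the pair stood at near-equal levels. Spleen replicate 4 lay between, with 84.9% Junb, 13.4% Jund and the rest Jun. The ratio of Junb to Jund per kilobase was 11.3 to 14.8 in skin, 0.830 to 1.05 in spleen replicates 1 to 3 and 6.33 in spleen replicate 4. The summed Fos family (Fos, Fosb, Fosl1 and Fosl2) per kilobase was 0.154 to 0.240 of the summed Jun family in skin and 0.229 in spleen replicate 4. In spleen replicates 1 to 3 it was 0 to 0.00411. Fos made up 89.8% to 97.2% of the Fos family level in skin and Fosl2 2.79% to 10.2%. These shares are descriptions of each library and were not tested.

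**Figure D2:**
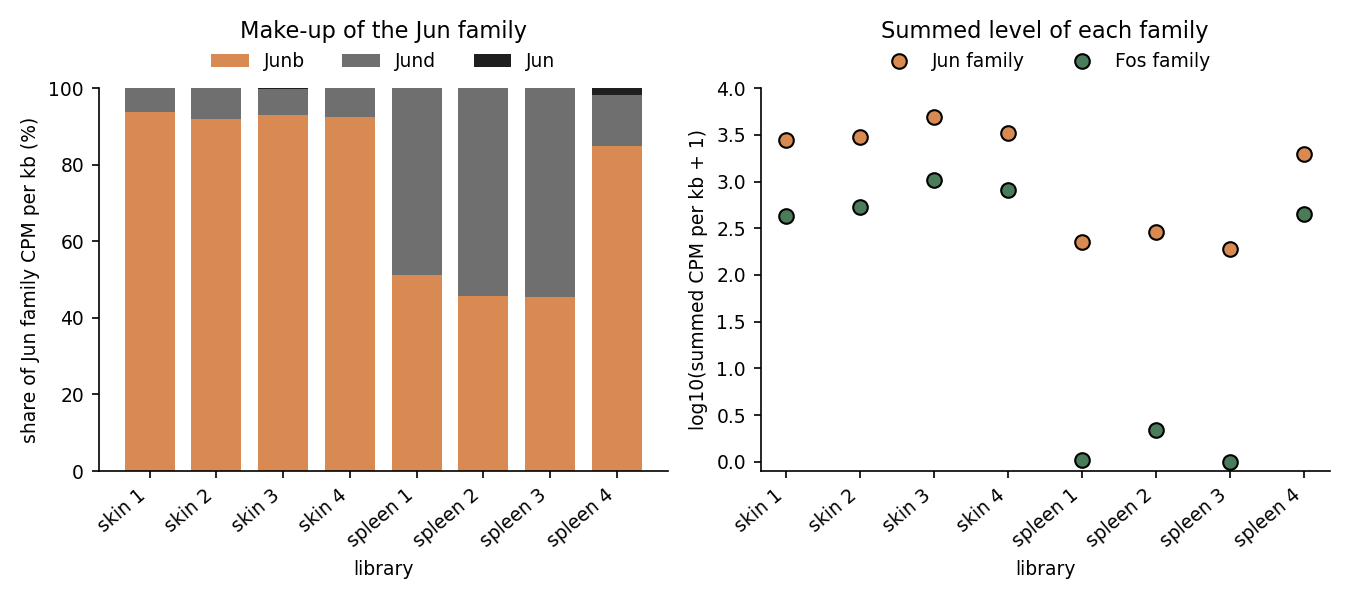
Left, share of the summed Jun family level (CPM per kilobase of transcript, in percent) taken by Junb, Jund and Jun in each library. Right, summed level of the Jun family (Jun, Junb, Jund) and of the Fos family (Fos, Fosb, Fosl1, Fosl2) as log10(CPM per kb + 1). Junb took 91.8% to 93.7% of the Jun family in the skin libraries and 45.4% to 51.1% in spleen replicates 1 to 3, where the Fos family was at or near 0.

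Atf3, a stress-induced factor that pairs with Jun proteins, followed the pattern of Fosl2. It stood at 240, 590.2, 650 and 642 CPM in skin replicates 1 to 4. In spleen replicate 4 it had 134 counts, or 19.9 CPM, and it had none in the other spleen libraries. Skin and spleen did not overlap, and skin replicate 1 was the lowest skin library. The fitted log2 fold change came to 6.74 ± 2.27 (SE; edgeR adjusted p = 0.174, n = 4 each). Without spleen replicate 4 the skin mean was at least 1499.5-fold above the floor of the 3 other spleen libraries (edgeR adjusted p = 0.00226).

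Batf, which has no activation domain of its own and steers Jun proteins to sites shared with IRF4, showed no ordering of the tissues. It stood at 52.7, 160.1, 110.4 and 0 CPM in skin and at 124, 58.2, 95.4 and 58.0 CPM in spleen. The fitted log2 fold change came to -0.05 ± 1.63 (SE; edgeR adjusted p = 0.9995, n = 4 each), an error too wide to show whether the levels differ. Without skin replicate 4, the library at 0, it was 0.32. Of 914 other genes whose mean in the other 3 skin libraries was within 25% of that of Batf, 20.5% were at 0 in skin replicate 4.

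Maff, a small Maf protein that lacks an activation domain, was low throughout. It stood at 0, 2.20, 29.9 and 15.1 CPM in skin and at 0, 0, 0 and 8.03 CPM in spleen. The fitted log2 fold change came to 2.55 ± 2.62 (SE; edgeR adjusted p = 0.996, n = 4 each), and it was 1.5 without skin replicate 3. Without spleen replicate 4 no spleen library held a count, and the skin mean was at least 33.3-fold above a floor of 3 counts in each (edgeR adjusted p = 0.267).

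Of the 10 members, 7 passed the filter and were tested, 6 with a log2 fold change above 0 and 1 below. In spleen replicates 1 to 3 Fosl2, Atf3 and Maff had no count and Fos had 1. These members passed the filter mostly through skin counts, which favours a sign above 0, so the split of signs is a description only. With all 8 libraries edgeR's quasi-likelihood test called 0 of the 7 tested members higher and 0 lower, where 1.85% of the 6920 genes tested were called higher and 3.58% lower. At an unadjusted p under 0.05, 3 members passed in edgeR, Fosl2, Atf3 and Junb. The share of all genes passing at that unadjusted threshold was not counted, so this number has no background to be read against. DESeq2 called 2 members higher, Fosl2 (adjusted p = 0.00379) and Atf3 (adjusted p = 0.0238), where it called 2.32% of 8711 genes higher and 13.6% lower. limma-voom with quality weights called the same pair (adjusted p = 0.0087 and 0.0216), where it called 2.99% of 6920 genes higher and 7.21% lower. The skin values lay above all spleen values for Fosl2, Junb and Atf3, 3 of the 10 members, as for 6.11% of the genes tested. No member had all spleen values above all skin values, as 13.4% of genes did.

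The calls turned on spleen replicate 4, the highest spleen library for each member called without it. Leaving that library out favours these calls, so their p-values are not independent of that choice. With spleen replicate 4 left out, Fos, Fosl2, Junb and Atf3 were called higher in skin and 0 members lower. In that fit 0.908% of 7052 genes tested were called higher and 0.284% lower. Without any other single library, 0 members were called. Jund did not overlap between the tissues either once spleen replicate 4 was set aside, which made 5 members, beside 7.41% of the 6920 genes. When skin replicate 3 was left out as well, a choice made after seeing the data, Fos (edgeR adjusted p = 0.00540), Junb (0.00151) and Atf3 (0.0269) were called and Fosl2 was not (0.0978), where 0.530% of 6604 genes were called higher and 0.257% lower.

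**Figure D3:**
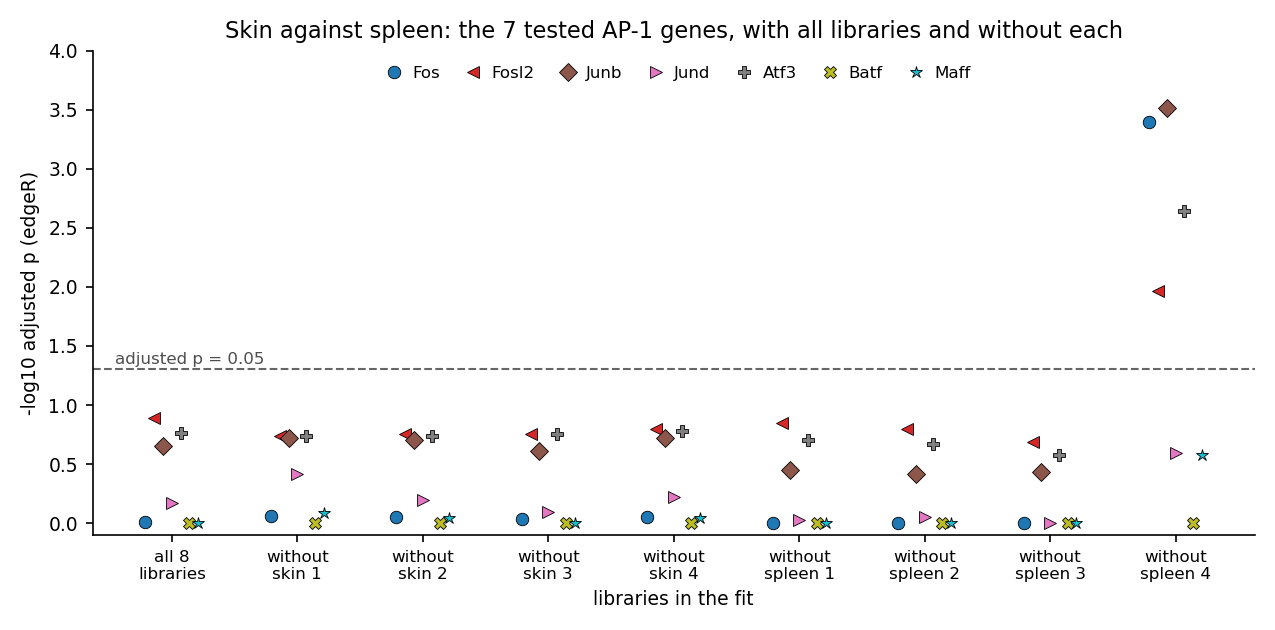
Negative log10 of the edgeR adjusted p for skin against spleen, for each of the 7 tested AP-1 genes, in the fit of all 8 libraries and in each fit without 1 library. The dashed line marks an adjusted p of 0.05, and Fos, Fosl2, Junb and Atf3 crossed it only in the fit without spleen replicate 4.

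The libraries at the top of each tissue were the same for most members. Skin replicate 3 was the highest skin library for 9 of the 10, all but Batf, as it was for 19.7% of the 11429 genes with a count in any library. Spleen replicate 4 was the highest spleen library for 8 of the 10, all but Fosl1 and Batf, as for 30.3% of those genes. It was at least 4-fold above the next spleen library for 6 members, Fos, Fosl2, Jun, Junb, Atf3 and Maff, as for 10.5% of those genes. The members are not replicates of a condition, so these counts describe 2 libraries.

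Spleen replicate 4 was like skin in some members and unlike it in others. Relative to the skin mean it held 106% of Jund, 69.0% of Fos and 51.8% of Junb. It held 71.8% of Batf, but for Batf the other spleen libraries (mean 92.4 CPM) also stood near the skin mean of 80.8 CPM. Of the members with low levels, spleen replicate 4 held 111% of Fosb, 68.1% of Maff and 0% of Fosl1. It held 3.76% of Atf3 and 2.34% of Fosl2, and its Jun level was above that of every skin library. Marker sums of other cells in spleen replicate 4 lay within the range of the other spleen libraries for dendritic cells (164 CPM against 21.6 to 429), B cells (92.6 against 48.8 to 235), keratinocytes (9.81 against 0 to 29.5) and macrophages (17.7 against 0 to 40.6). The endothelial sum, carried by 1 of 6 markers, was 57.4 CPM there and at most 16.7 CPM in the other spleen libraries. Its part in these levels was not tested.

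**Figure D4:**
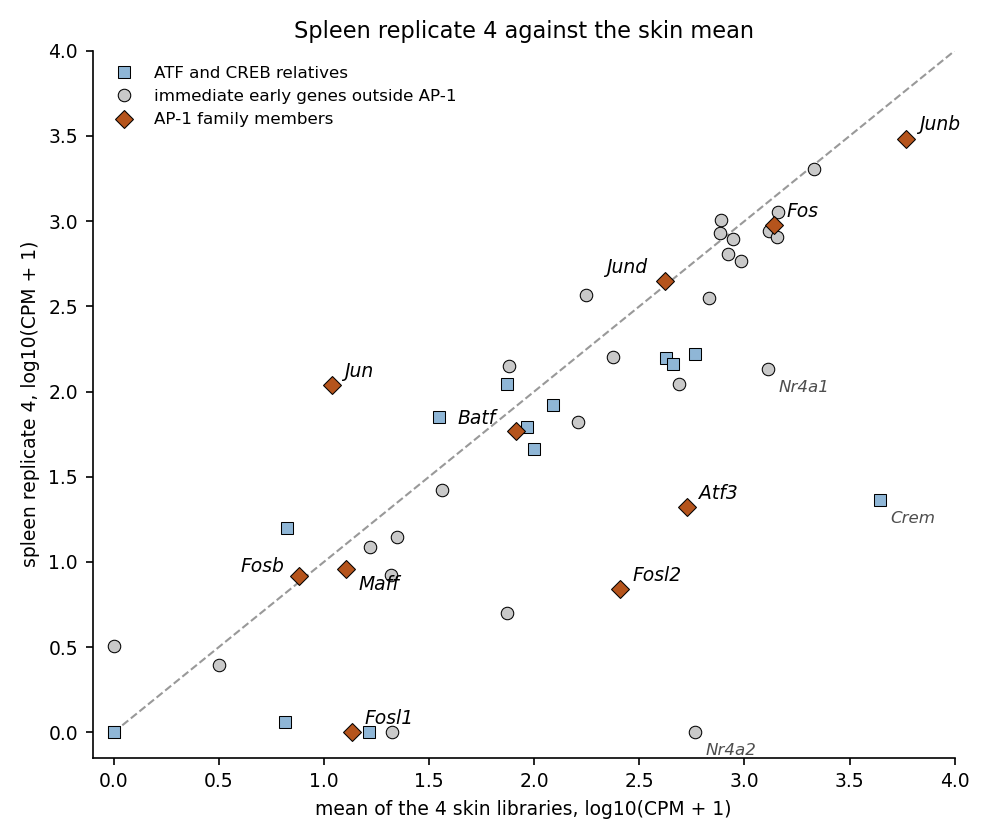
Level in spleen replicate 4 against the mean of the 4 skin libraries, both as log10(CPM + 1), for the AP-1 members (diamonds), other immediate early genes (circles) and ATF and CREB relatives (squares). The dashed line marks equal levels. Jund, Batf, Fos, Junb, Fosb and Maff lay near the line, and Jun lay above it. Atf3 and Fosl2 lay far below it, at 3.76% and 2.34% of the skin mean, and Fosl1 was at 0 in spleen replicate 4.

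Among immediate early genes outside AP-1 some stood high in spleen replicate 4 and some did not. Of 25 listed, 20 were tested, and 1 was higher in skin with all 8 libraries (1 to 5 in the fits without 1 library) and 0 lower. With all 8 libraries 1.85% of all genes tested were called higher and 3.58% lower. The median log2 fold change of the 20 was 1.76, against -0.29 over all genes tested, and 18 of the 20 were above 0. Nr4a2 and Klf4 had no count in spleen replicates 1 to 3, so they passed the filter on skin counts, which favours that sign. Nr4a2, an orphan nuclear receptor induced by antigen receptor signals, was the 1 called (205, 298, 1269.5 and 548 CPM in skin, 0 in all spleen libraries; edgeR adjusted p = 0.00511). Zfp36, which promotes decay of AU-rich messages, stood at 451, 855, 1284 and 739 CPM in skin. It stood at 54.7, 47.9, 51.1 and 638 CPM in spleen, highest in spleen replicate 4. Ppp1r15a, a subunit of an eIF2α phosphatase, stood at 1106, 1060, 1895 and 1730 CPM in skin and at 19.3, 55.5, 55.5 and 1131 CPM in spleen. Without spleen replicate 4, 5 of the 20 were called higher and 0 lower: Ppp1r15a (edgeR adjusted p = 0.00340), Zfp36, Nr4a2, Ier2 and Tnfaip3. In that fit 0.908% of 7052 genes tested were called higher and 0.284% lower. Spleen replicate 4 was the highest spleen library for all of these but Nr4a2, so leaving it out favours their calls.

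Zfp36 and Ppp1r15a were also the genes most like Fos across the 8 libraries. Among 3879 tested genes with a mean of at least 50 CPM, the Pearson correlation of log2(CPM + 1) with Fos was 0.989 for Zfp36, 0.983 for Ppp1r15a, 0.978 for Capza2, 0.973 for Hiatl1 and 0.972 for Ier2. Most like Junb were Bambi (0.987), Zfp36 (0.986), Clic4 (0.983), Ppp1r15a (0.976) and Nfil3 (0.968). Jund was most like Hspa1b (0.941), Zfp36 (0.925), Dusp2 (0.924), Cebpb (0.911) and Atf2 (0.904). Batf was most like Tm9sf1 (0.991), Smu1 (0.991), Ide (0.985), Cmas (0.976) and Rnf13 (0.974), all of which were at or near 0 in skin replicate 4 as Batf was. These values describe 8 shared libraries, and the highest of so many correlations is high by selection.

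Several bZIP relatives outside the family were higher in skin. Of 14 ATF and CREB relatives 10 were tested, and 4 were higher in skin (0 to 1 in the fits without 1 library), 0 lower and 6 did not pass. Over all genes tested 1.85% were called higher and 3.58% lower. The list's median log2 fold change was 1.69, against -0.29 over all genes tested. Crem, which encodes activators and repressors that answer cyclic AMP, stood at 4691, 5040, 3475 and 4435 CPM in skin and at 0, 19.8, 0.142 and 22.0 CPM in spleen. Crem was higher in skin by 8.72 on the log2 scale (SE 1.81; edgeR adjusted p = 0.0463), and it was called in 1 of the fits that left out 1 library. Atf4, the effector of the integrated stress response, stood at 403, 653, 666 and 610 CPM in skin and at 177, 182, 213 and 164 CPM in spleen (edgeR adjusted p = 0.0153; called in 2 of those 8 fits). Cebpb stood at 240, 373, 645 and 429 CPM in skin and at 53.8, 103, 52.3 and 157 CPM in spleen, where replicate 4 was the highest. Cebpb and Nfe2l2 had an adjusted p of 0.0473 each in edgeR and were called in none of the 8 fits. Of the 11 other AP-1 family bZIP genes 4 were tested and 0 called. Batf2, Batf3, Mafa and Nrl had no count in any library. Mafk, a small Maf like Maff, stood at 637, 132, 610 and 275 CPM in skin and at 132, 229, 106 and 102 CPM in spleen (edgeR adjusted p = 0.222).

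Upstream of AP-1, 1 kinase transcript was called. Of 24 genes of the MAP kinase modules 20 were tested, with a median log2 fold change of -0.0022. Among the 20, 1 was higher and 0 lower, where 1.85% of all genes tested were called higher and 3.58% lower. The 1 was Map2k3, a kinase that activates p38, at 1557, 2648, 2001 and 1163 CPM in skin and 329, 354, 266 and 195 CPM in spleen. Map2k3 was higher in skin by 2.69 on the log2 scale (SE 0.31; edgeR adjusted p = 0.00373), and it was called in each of the 8 fits that left out 1 library. Mapk14, which encodes p38α, stood at 393, 323, 183 and 232 CPM in skin and at 75.2, 131, 118 and 169 CPM in spleen, without overlap and without a call (edgeR adjusted p = 0.256). Of serum response factor and its partners 4 of 9 were tested and 0 called. Of the NFAT, IRF and RUNX partners 9 of 11 were tested and 0 called. Irf4, the partner of Batf, had counts only in spleen replicate 1 (11.5 CPM). Of the ubiquitin ligases and repressors that act on Jun and Fos 7 of 11 were tested and 0 called.

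Among 24 genes known as AP-1 targets in lymphocytes and stromal cells 14 were tested, and 5 were higher in skin (2 to 3 in the fits without 1 library), 0 lower and 9 did not pass. Of all genes tested, 1.85% were called higher and 3.58% lower. The list's median log2 fold change was 2.54, against -0.29 over all genes tested. This list, like the others, was chosen with earlier results of these data known. Plaur had no count in spleen and passed the filter on skin counts alone, which favours a sign above 0. Icos, a costimulatory receptor, and Cd44, the hyaluronan receptor, were called in all 8 fits without a library. Odc1, the rate-limiting enzyme of polyamine synthesis, stood at 1219.5, 746, 1926.5 and 2505 CPM in skin. It stood at 107, 34.6, 80.2 and 275 CPM in spleen (edgeR adjusted p = 0.0309; called in 2 of the 8 fits). Plaur, the urokinase receptor, and Vim, which encodes vimentin, were called in none of the 8. The cytokine genes Il2, Il5 and Il13 had no count in any library. Ifng stood at 218, 105, 116 and 54.2 CPM in skin and at 42.3, 129, 137 and 285 CPM in spleen, with overlap and no call (edgeR adjusted p = 0.998). Cyclin D1 (Ccnd1), Timp1, Spp1 and Plau had no count in any library either.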

How the data were processed

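The authors deposited expected counts, estimates made by RSEM that divide ambiguous reads among genes (tool named in the submitters' processing notes). FastQC, DESeq2 1.16.1 and the build mm9 stand in those notes too, with no stated role. Per the labels' protocols, cDNA came from a full-length ultra-low-input kit and was read in pairs of 75 bp. Which aligner and annotation were used is not stated. Columns were matched to libraries through the labels, and 0 were left unused. The authors' expected counts were rounded to whole numbers and tested with edgeR 4.0.16 in R 4.3.3 (filterByExpr, TMM, robust quasi-likelihood fit with tissue as the only term, Benjamini-Hochberg at 0.05 over 6920 genes; common dispersion 2.94). CPM use TMM-scaled library sizes. An SE is the log2 fold change over the square root of F. A floor of 3 counts was 0.292 to 0.454 CPM. Reads carry no molecular identifiers, so floors and intervals cover counting error only. The fit was also run on counts simulated at a dispersion far below that of these data and at their common dispersion. A required outcome was set only at the lower dispersion. What the fit recovered at the common dispersion is not given here, so its power in these data is not shown.

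The members and lists were chosen with earlier results of these data known. Of 223 list symbols 217 matched the table, 2 by an older symbol. Named are all members, up to 3 called genes per direction of each list (all where 5 or fewer), the 5 genes most like Fos, Junb, Jund and Batf, and list members given beside their list. Same-numbered libraries did not deviate together (correlations 0.00175 to 0.0105 across genes), and no pair of libraries agreed within sampling noise (smallest chi-square per degree of freedom 112). Alternatives were other scalings (RLE, upper quartile), other filters (none, or 5 CPM in 4 libraries), other tests (DESeq2 1.42.0, limma-voom 3.58.1), rounding down, the replicate number as a block and each library left out. A listed gene is not reported here. RefSeq promoter sequences matched 9 of the 10 members, with 3 starts for Maff.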

Additional observations from a re-analysis of the deposited data

Results flagged for a closer look

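A value was singled out where 1 library of a tissue stood apart from the other 3, with a gap to its neighbour above Dixon's critical share of the whole range (the smallest such gap was 0.855 of it). Chance gives this in about 1 in 20 groups, and zeros in the other libraries make it easy to reach. Spleen replicate 4 stood apart for Fos (950.1 CPM), Junb (3048 CPM), Jun (108.2 CPM), Atf3 (19.92 CPM), Maff (8.028 CPM) and Fosl2 (5.947 CPM). Skin replicate 3 stood apart for Fosl1 (50.29 CPM), Jun (39.62 CPM) and Fosb (25.2 CPM). Skin replicate 1 stood apart on the low side for Atf3 (240 CPM).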

How the results depend on the processing

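Over all genes, 128 were called higher and 248 lower in skin. DESeq2 called 202 and 1188, limma-voom 207 and 499, the fit with the replicate number as a block 36 and 14, and the fit without a filter 48 lower. Without 1 library the counts were 47 to 102 higher and 17 to 111 lower, and without both skin replicate 3 and spleen replicate 4 they were 35 and 17. The number of AP-1 members called higher was 0 with all libraries, 2 with DESeq2, 2 with limma-voom, 0 to 4 without 1 library and 3 without both libraries. With the replicate block, RLE or upper-quartile scaling, either filter or rounding down it remained 0, and no member was called lower in any fit. The same-numbered libraries share only a number, and the block changed no call of a member. The 6 other tested members kept the sign of their log2 fold change in all fits that tested them. Batf, the exception, turned from -0.05 to 0.01 with upper-quartile scaling, and to between 0.02 and 0.32 in 4 of the 8 fits without 1 library (-0.67 to 0.32 over all 8). Without a filter, Fosb, Fosl1 and Jun were tested and not called (edgeR adjusted p = 0.929, 0.217 and 0.922). The cause of these changes was not tested. Read depth sets a floor of 0.292 to 0.454 CPM. The 0 of Batf in skin replicate 4 stood beside a mean of 108 CPM in the other skin libraries, and 20.5% of genes at a like level were also at 0 there.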
